A study of Drosophila melanogaster with 30 samples.

Results

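The 200 genes described here are the nuclear genes of fly heads whose transcripts were recovered least by the m6A antibody in unstressed control flies, once several gene classes had been left out by name. N6-methyladenosine (m6A) is a base modification of mRNA that a nuclear methyltransferase complex containing Mettl3 and Mettl14 installs, and in Drosophila it lies mainly in 5′ untranslated regions (5′UTRs). In m6A-IP sequencing, fragmented polyA+ RNA is pulled down with an antibody against m6A and sequenced beside a sample of the same RNA taken before the pull-down (input). A gene with a low IP/input ratio gave fewer fragments to the antibody than to the input, relative to the other genes of the same libraries, so the ratio is a property of a whole gene and measures neither the fraction of methylated molecules nor the position of the mark.

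The genes were chosen by measured values. Counts were scaled by the library total (CPM, counts for each 1e6 counts of a library), and genes with a mean of at least 5 CPM in the 3 control basal inputs were kept, which left 8115 of the 17562 genes of the table. Mitochondrial genome transcripts, long non-coding and antisense RNAs, ribosomal and mitochondrial ribosomal proteins, named subunits of the respiratory chain and odorant-binding proteins were left out by name, which left 7796 genes. The 200 with the smallest log2 of mean IP CPM, with 0.1 CPM added, over mean input CPM were taken. That ratio spanned −4.21 for 28SrRNA-Psi:CR45848 to −1.23 for 7B2. Just inside the limit, Jhe, Sdic4 and 7B2 each had −1.23, and just outside it CG15093 had −1.23, CG9804 −1.23 and CG7550 −1.22, so the limit falls within a continuous distribution. The list shared 156 of its 200 genes with one made with 1 CPM added in place of 0.1, 157 with one that required 10 CPM of input, and 165, 174 and 174 with lists made without control basal replicate 1, 2 or 3. With no names left out, 160 were shared, so genes of the classes left out, nuclear ones among them, would otherwise have entered the list. Because the 6 control basal libraries chose the genes, their values there are a description, and tests were made only between libraries of the other groups.

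The study compared heads of male progeny at 1-2 days after eclosion from crosses to daGal4, a driver expressed ubiquitously under the daughterless promoter, so that all groups carry the driver. dTrmt10A RNAi flies carry a Vienna KK knockdown line of dTrmt10A (CG14618), the fly homolog of a human tRNA guanosine methyltransferase, UAS-dTrmt10A flies carry a transgene with a FLAG-HA tag at its C terminus for upregulation, and controls carry the KK control line. The groups were dTrmt10A RNAi in basal conditions (RNAi basal), UAS-dTrmt10A after heat shock for 30 min at 38.5 °C with collection right after it (UAS HS), UAS-dTrmt10A in basal conditions (UAS basal), control after the same heat shock (control HS) and control in basal conditions (control basal). Each had 3 replicates of 200 heads, each with an IP and an input library, which gives 30 libraries, and the labels do not say whether replicates came from separate crosses, so p-values measure the spread between these samples. The knockdown, control and upregulation lines have different insertion sites and origins, so that genetic background and the transgene cannot be told apart, and whole heads hold many cell types, so that fewer cells of a type and less RNA per cell cannot be told apart.

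Input libraries held between 20110909 and 51006574 counts and IP libraries between 16255688 and 30456825. dTrmt10A itself was at 4.20, 4.35 and 4.58 CPM in RNAi basal inputs, 205, 212 and 201 CPM in UAS HS, 156, 179 and 207 CPM in UAS basal, 4.63, 4.94 and 5.19 CPM in control HS and 9.30, 8.33 and 9.52 CPM in control basal. It was thus lower in RNAi basal than in control basal and far higher in the UAS groups, where reads of the transgene may be included, and it was also lower in control HS than in control basal. Markers of head tissue were well above background, with the 12 neuron markers summing to between 4925 and 6437 CPM, whereas the 55 markers of the male accessory gland summed to between 8.45 and 14.3 CPM. Yolk protein transcripts, which females express, were high in some libraries of every group but control HS. Input levels of Yp1 were 6.22, 512 and 4.61 CPM in RNAi basal, 12.4, 4.45 and 214 CPM in UAS HS, 187, 55.1 and 0.294 CPM in UAS basal, 1.23, 0.353 and 0.238 CPM in control HS and 424, 1.51 and 0.516 CPM in control basal. This touches 1 of the 200 genes directly, Yp3, whose values are given below, and its part in other results was not tested.

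In control basal heads, the 200 depleted genes had a median input of 21.7 CPM, with a range of 5.01 to 1435 CPM, and a median IP of 7.81 CPM. The other 7596 genes had a median input of 38.7 CPM and a median IP of 36.4 CPM. Over all 30 libraries the depleted genes took between 1.20% and 1.67% of the input counts and between 0.328% and 0.773% of the IP counts. A depleted gene had a median of 138 counts in an IP library, none was at 0, and 7 fell below 10 counts in at least 1 IP library, where counting error is large.

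The depletion was present in all 4 groups that were not used to choose the genes. Beginning with RNAi basal, 199 of the 200 genes were lower in IP than in input at an adjusted p under 0.05 in edgeR's quasi-likelihood test, beside 38.4% of all genes tested. The count was 192 of 200 in UAS HS beside 35.8% of all genes, 197 in UAS basal beside 31.3% and 196 in control HS beside 35.7%. No depleted gene was higher in IP in any of these groups, while 35.4% of all genes were higher in RNAi basal, 33.6% in UAS HS, 31.1% in UAS basal and 35.0% in control HS. The median log2 difference of IP and input for the 200 genes was −1.43 in RNAi basal, −1.45 in UAS HS, −1.09 in UAS basal and −1.48 in control HS, against medians over all genes of −0.08, −0.07, −0.05 and −0.06 in the same order of groups. With 1 replicate left out, the count ranged from 198 to 199 in RNAi basal, 188 to 197 in UAS HS, 188 to 198 in UAS basal and 193 to 198 in control HS.

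**Figure D1:**
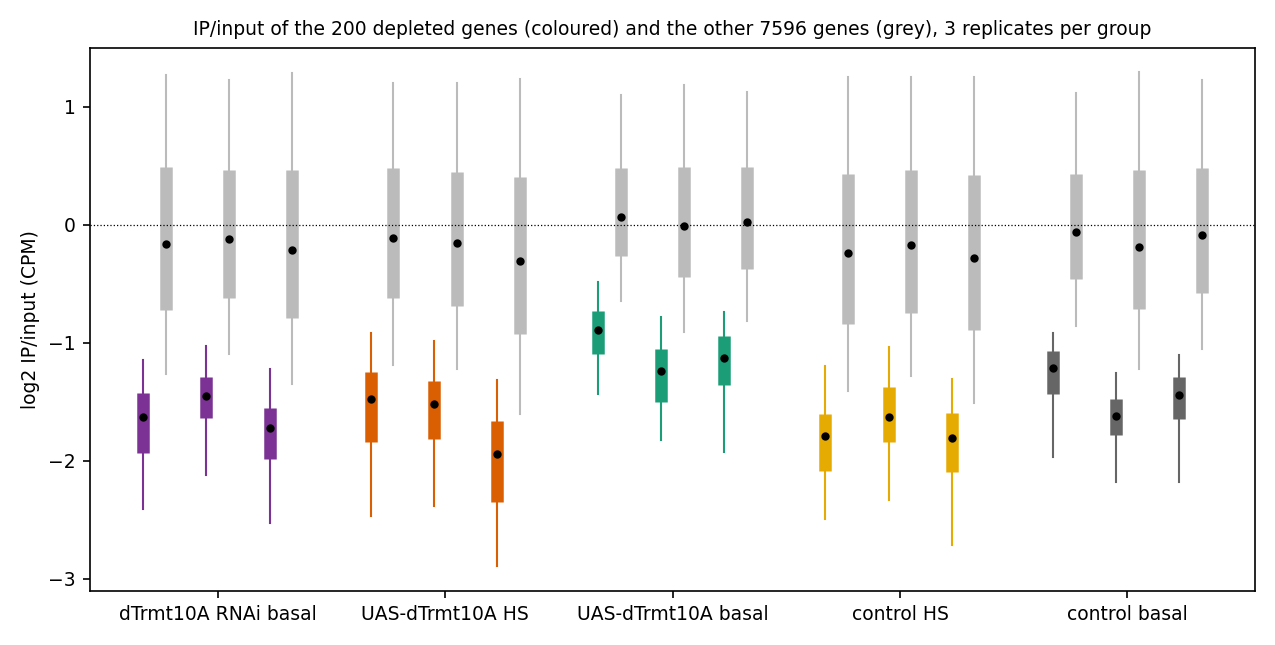
Log2 IP/input, from CPM with 0.1 CPM added to IP, of the 200 depleted genes (coloured) and of the other 7596 genes (grey) in each of the 15 samples. Points are medians, thick bars run between the 25th and 75th percentiles and thin bars between the 5th and 95th, and the median of the depleted genes lies below the median of the other genes in every sample. In control basal this comes with the choice of the genes.

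The few genes that did not pass in this test, which does not pair the IP and input of a replicate, were of 3 kinds. With the replicate as a block, which pairs IP and input from the same RNA, all 200 genes were lower in IP in each of these groups. Yp3, a yolk protein, did not pass in RNAi basal, UAS HS and UAS basal. The attacin AttA did not pass in UAS basal and control HS, AttB in control HS, and the diptericin DptB in UAS basal and control HS, and all of these encode antimicrobial peptides. In UAS HS the other 7 were copies of structural RNA genes, 28SrRNA-Psi:CR40596, 28SrRNA-Psi:CR45859, 28SrRNA-Psi:CR40741, 28SrRNA-Psi:CR45855, 18SrRNA-Psi:CR41602, 7SLRNA:CR32864 and 7SLRNA:CR42652, and 28SrRNA-Psi:CR45855 also did not pass in control HS. Every one of these had a negative estimate, and 14 of the 15 samples had all 200 genes below 0 on the log2 CPM ratio. The 15 include the 3 control basal samples, where low values come with the choice of the genes. The exception was UAS HS replicate 2, where 28SrRNA-Psi:CR45855 stood at 0.41.

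The genes also kept a low rank among the 7796 genes. Of the 200, 144 were again among the 200 lowest in RNAi basal, 105 in UAS HS, 128 in UAS basal and 132 in control HS. Among the lowest 779 genes were 196 in RNAi basal, 191 in UAS HS, 193 in UAS basal and 194 in control HS, and all 200 ranked below the middle gene in each of these groups. These ranks are a description of the groups, since the samples share the gene lengths and base compositions of the same transcripts.

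The depth of the depletion differed between samples together with the spread of IP/input over all genes. On the log2 CPM ratio, the median of the 200 genes minus the median of the 7796 genes was −1.60 in UAS HS replicate 3 at one end and −0.94 in UAS basal replicate 1 at the other. The standard deviation of the ratio over the 7796 genes ranged between 0.576 and 0.928 across the 15 samples. Divided by this spread, the distance was between −1.77 and −1.64 standard deviations in all 15 samples, which include the control basal samples that chose the genes. Differences in depth between groups therefore cannot be told apart from differences in the spread of all genes.

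**Figure D2:**
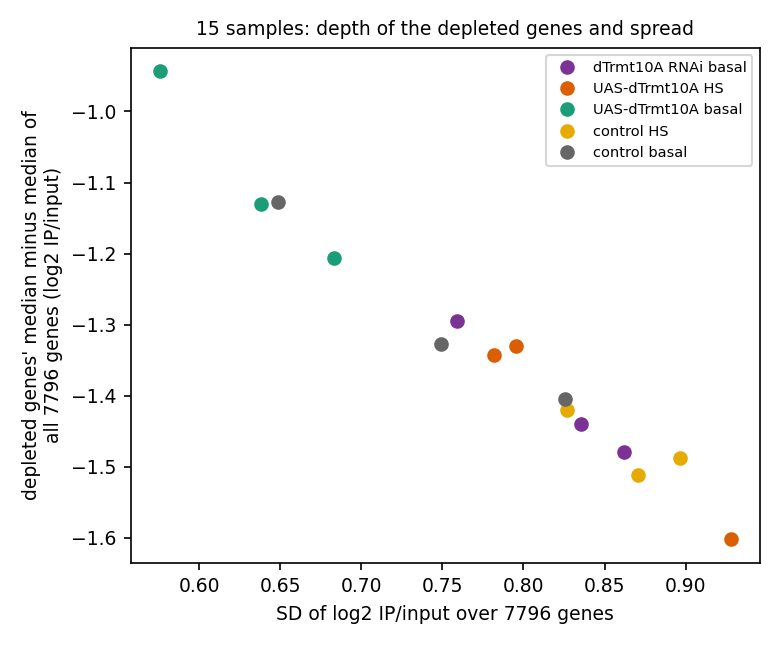
For each of the 15 samples, the median log2 IP/input of the 200 depleted genes minus that of all 7796 genes (vertical axis) against the standard deviation of log2 IP/input over the 7796 genes (horizontal axis), coloured by group. The points run along a line between a difference of −0.94 at a small spread and −1.60 at a large one.

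The most depleted gene with a known protein was RNASEK, named for ribonuclease kappa (FBgn0262116, 2R:4186835-4188127 in dm6). Its IP levels were 3.32, 3.74 and 4.09 CPM in RNAi basal, where its input levels were 43.8, 40.4 and 42.9 CPM. In UAS HS it had 2.96, 3.42 and 1.51 CPM in IP and 30.6, 28.9 and 32.9 CPM in input, and in UAS basal 6.44, 8.21 and 6.70 CPM in IP and 39.4, 38.9 and 39.1 CPM in input. In every replicate of every group IP was far below input, with no overlap. The log2 difference of IP and input was −3.33 (SE 0.101, edgeR adjusted p = 7.32e-09) in RNAi basal, −3.35 (SE 0.202, edgeR adjusted p = 8.33e-07) in UAS HS, −2.46 (SE 0.111, edgeR adjusted p = 1.45e-06) in UAS basal and −3.62 (SE 0.144, edgeR adjusted p = 1.15e-07) in control HS.

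Genes with a known role were put into groups by hand after their values were seen, so a group's size cannot be read against all genes. Metabolic enzymes gave 20 genes, with a median log2 CPM ratio of −1.53 over the 4 groups not used to choose them. Gapdh2 (FBgn0001092, X:15868145-15869661) and Gapdh1 (FBgn0001091, 2R:7791901-7793380) encode the glycolytic enzyme glyceraldehyde-3-phosphate dehydrogenase, and their coding sequences are similar enough that reads could be shared between them. Gapdh2 had IP levels of 179, 244 and 165 CPM and input levels of 954, 1016 and 951 CPM in RNAi basal. In UAS basal it had 431, 318 and 329 CPM in IP and 1123, 1101 and 1005 CPM in input. Its depletion was −2.13 (SE 0.117) in RNAi basal, −1.99 (SE 0.14) in UAS HS, −1.59 (SE 0.113) in UAS basal and −2.21 (SE 0.0601) in control HS. Gapdh1 was less depleted than Gapdh2 by these estimates in each group, at −1.50, −1.22, −1.15 and −1.52 in the same order, a difference that was not tested.

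Mdh1, a malate dehydrogenase, had 176, 235 and 176 CPM in IP and 620, 664 and 641 CPM in input of RNAi basal. Its depletion was −1.53 (SE 0.0991) there, −1.14 (SE 0.103) in UAS HS, −0.89 (SE 0.153) in UAS basal and −1.51 (SE 0.0604) in control HS. SamDC, S-adenosylmethionine decarboxylase of polyamine synthesis, was among the 10 lowest ratios, with 6.32, 8.13 and 5.07 CPM in IP and 31.3, 35.1 and 27.1 CPM in input of RNAi basal. Oda, ornithine decarboxylase antizyme and thus an inhibitor of the same pathway, had the highest input of the 200 genes, with 571, 599 and 569 CPM in IP and 1464, 1502 and 1410 CPM in input of RNAi basal. Its depletion was among the most even, at −1.15 (SE 0.0597) in RNAi basal, −1.27 (SE 0.0959) in UAS HS, −1.15 (SE 0.0696) in UAS basal and −1.13 (SE 0.0618) in control HS. Hn, phenylalanine hydroxylase, and GstE12, a glutathione S-transferase, were other enzymes with high input. Hn was at −1.52 in RNAi basal, −1.53 in UAS HS, −0.95 in UAS basal and −1.68 in control HS. GstE12 was at −1.38, −1.18, −0.92 and −1.35 in these groups. The lysosomal protease cathD had 57.3, 70.6 and 42.9 CPM in IP and 259, 265 and 227 CPM in input of RNAi basal, and a depletion of −1.96 there, −1.70 in UAS HS, −1.38 in UAS basal and −1.94 in control HS. For all of these enzymes the IP levels stayed below the input levels in every replicate.

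**Figure D3:**
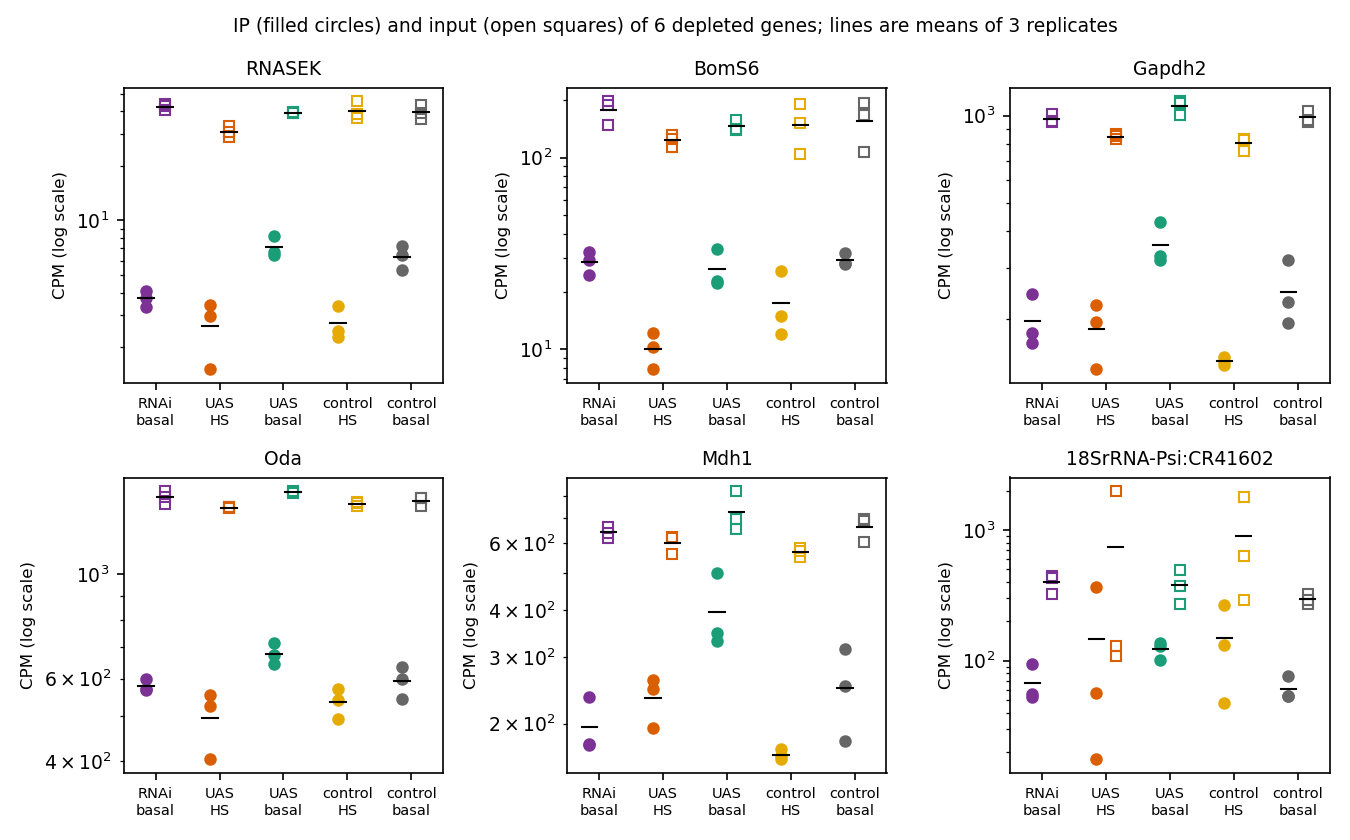
IP levels (filled circles) and input levels (open squares) in CPM on a log scale for RNASEK, BomS6, Gapdh2, Oda, Mdh1 and 18SrRNA-Psi:CR41602 in the 5 groups, with lines at the means of 3 replicates. All the genes shown keep their IP below the input of the same replicate, and 18SrRNA-Psi:CR41602 ranges from 108 to 1987 CPM in the inputs of UAS HS.

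Antimicrobial and immune-induced peptides gave 10 of the 200 genes, which is 34.5% of the 29 genes on a list of such genes that passed the limit of 5 CPM. For this list and every list below, the share to compare with is 200 of all 7796 genes. The list holds bomanins, attacins, diptericins, drosomycins, Turandot stress peptides and related genes, which the fat body secretes in infection and which were expressed here without any infection named in the labels. The 10 were BomS6, BomS4, BomS5, BomT2, TotX, Drsl4, Mtk, DptB, AttA and AttB, with a median log2 CPM ratio of −1.96. BomS6 (FBgn0040733, 2R:18390353-18390629) had 32.2, 24.3 and 29.3 CPM in IP and 198, 148 and 187 CPM in input of RNAi basal, and 10.2, 12.2 and 7.85 CPM in IP and 113, 131 and 126 CPM in input of UAS HS. Its depletion was −2.45 (SE 0.14, edgeR adjusted p = 1.64e-07) in RNAi basal, −3.40 (SE 0.134, edgeR adjusted p = 1.82e-07) in UAS HS, −2.49 (SE 0.141, edgeR adjusted p = 3.69e-06) in UAS basal and −2.83 (SE 0.298, edgeR adjusted p = 2.94e-05) in control HS. TotX, a Turandot peptide, was at −2.16 in RNAi basal, −2.55 in UAS HS, −1.87 in UAS basal and −2.18 in control HS. Of the 10, all passed as lower in IP than in input in RNAi basal and in UAS HS, 8 in UAS basal and 7 in control HS, by the test without pairing.

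The immune list was far from uniform. Over the 29 genes, the log2 CPM ratio averaged over the samples of the 4 groups ran between −2.97 for BomS6 and 1.27 for another bomanin, BomT3. BomS2, which is outside the 200, averaged −1.60, while IM4 averaged 0.46 and Listericin 0.49. By the test, 19 of the 29 were lower and 3 higher in RNAi basal, 21 lower and 4 higher in UAS HS, 19 lower and 3 higher in UAS basal, and 17 lower and 3 higher in control HS. Of all genes tested, 38.4% were lower and 35.4% higher in RNAi basal, and 35.8% and 33.6% in UAS HS. The shares were 31.3% and 31.1% in UAS basal and 35.7% and 35.0% in control HS. BomS4, BomT2, BomS5 and BomS6 lie within 1 cluster on chromosome 2R, with gaps of 4083, 515 and 110 bases between neighbours, and AttA and AttB lie 1007 bases apart, which leaves room for shared reads between these similar attacins.

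A group of secretory pathway and glycosylation genes, put together by hand in the same way, held 12 genes with a median log2 CPM ratio of −1.66, whereas of the 29 genes on the list of the secretory pathway and signal peptidase 1 was among the 200 (3.45%), eca. They include the cornichon cargo receptors cni and cnir, the p24 protein eca, the glycosyltransferases Alg9 and O-fut1, the GPI anchor transamidase subunit PIG-U, the small GTPase Rab27 and VhaM9.7-b, a subunit of the vacuolar proton pump. GPHR was the lowest of them at −2.01. Of the 19 vacuolar proton pump genes that passed the limit on input, 1 was among the 200 (5.26%). In RNAi basal 14 of the 19 were lower and 3 higher in IP, beside 38.4% and 35.4% of all genes tested. Transporters were represented by 6 named genes with a median of −1.40, among them Indy, a citrate transporter, and DAT, the dopamine transporter. DAT had 5.25, 6.88 and 3.87 CPM in IP and 9.49, 11.1 and 11.7 CPM in input of RNAi basal.

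Some of the genes act in neurons or photoreceptors. The circadian neuropeptide Pdf had 14.5, 15.5 and 14.7 CPM in IP and 37.0, 38.8 and 36.0 CPM in input of RNAi basal, and a depletion of −1.14 in RNAi basal, −1.49 in UAS HS, −1.25 in UAS basal and −1.14 in control HS. The insulin-like peptide Ilp5 was at −1.33, −1.27, −1.13 and −1.49 in the same groups. 7B2, a chaperone of a prohormone convertase, was at −1.15 (SE 0.0758), −0.98 (SE 0.112), −0.86 (SE 0.0736) and −1.27 (SE 0.0757). Rh2, the opsin of the ocelli, and inaF-B, needed for the photoreceptor's TRP channel, were the 2 of 30 phototransduction genes (6.67%) among the 200. None of 12 neuron markers was among the 200, and their median log2 CPM ratio in the 4 groups was 0.84. In IP, 10 of 12 were higher and 0 lower in RNAi basal, and 11 higher and 1 lower in UAS HS. Of all genes tested, 35.4% were higher and 38.4% lower in RNAi basal, and 33.6% and 35.8% in UAS HS.

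Genes of RNA metabolism and protein turnover were also present. MED21, a subunit of the Mediator complex, had 3.64, 4.93 and 4.25 CPM in IP and 17.5, 15.1 and 17.5 CPM in input of RNAi basal and was the only one of 60 genes on a list of RNA polymerases and general transcription factors. The 9 named genes of gene expression, among them the RNA polymerase regulators Tif-IA and Maf1 and the mitochondrial factor mTerf5, had a median log2 CPM ratio of −1.41. Of 48 genes of proteasome and ubiquitin, 3 were among the 200, the polyubiquitin gene Ubi-p63E and the core particle subunits Prosalpha5 and Prosbeta4. Ubi-p63E had 397, 387 and 334 CPM in IP and 928, 926 and 878 CPM in input of RNAi basal, and a depletion of −1.11 (SE 0.0744) there, −1.19 (SE 0.139) in UAS HS, −0.94 (SE 0.116) in UAS basal and −1.12 (SE 0.069) in control HS. Detoxification gave 4 of 112 genes, GstE12, GstE14, Ugt35C1 and Cyp4ac2. In RNAi basal 94 of the 112 were lower and 7 higher in IP, beside 38.4% and 35.4% of all genes tested.

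SdhC, a membrane subunit of succinate dehydrogenase, and the import factor Tim8 were the 2 of 28 genes left on the list of mitochondrial import and respiration. The cuticle protein Lcp65Ac, the troponin C TpnC41C and Yp3 each were the only one among the 200 from the lists of cuticle proteins (34 genes), muscle markers (13) and fat body markers (6). No gene came from the lists of spliceosome proteins (26 genes), translation factors (47), histones (4), digestive proteases (17), m6A writers and readers (9), heat-inducible genes (17), photoreceptor markers (8) or glia markers (9). The heat-inducible genes had a median log2 CPM ratio of 0.38 and the m6A writers and readers of 0.31. A further 97 of the 200 genes carry only an annotation number as a name, and their median of −1.59 was close to the −1.55 of all 200.

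Copies of ribosomal RNA genes and of 7SL RNA, the RNA of the signal recognition particle, formed the lowest group, with 8 genes and a median log2 CPM ratio of −2.11. The 8 are 6 ribosomal RNA pseudogenes and both 7SL genes, and because near-identical copies exist for all of them, how reads were assigned among copies is uncertain. These RNAs are not made as polyA+ transcripts, and their levels in the polyA+ inputs varied widely. The 8 genes summed to 847, 1079 and 1149 CPM in input of RNAi basal, 5068, 328 and 399 CPM in UAS HS, 698, 968 and 1257 CPM in UAS basal, 4548, 1681 and 773 CPM in control HS and 835, 805 and 740 CPM in control basal. The IP sums in UAS HS were 989, 177 and 65.5 CPM, so the first replicate was high in IP and input alike.

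The lowest of all 200 genes, 28SrRNA-Psi:CR45848 (FBgn0267508, on the rDNA unit), had 0.428, 0.798 and 0.491 CPM in IP and 8.16, 11.0 and 12.9 CPM in input of RNAi basal. A count of 3, the detection floor, was 0.161, 0.150 and 0.164 CPM in these IP libraries, so its IP values rest on few counts. Its depletion was −4.02 (SE 0.272, edgeR adjusted p = 4.60e-07) in RNAi basal, −4.90 (SE 1.21, edgeR adjusted p = 0.00438) in UAS HS, −3.53 (SE 0.24, edgeR adjusted p = 7.07e-06) in UAS basal and −4.10 (SE 0.752, edgeR adjusted p = 0.00103) in control HS. The standard errors were several times larger after heat shock, where the inputs spread widely. For 18SrRNA-Psi:CR41602 the input levels were 1987, 108 and 130 CPM and the IP levels 366, 56.2 and 17.6 CPM in UAS HS. IP was thus below input in each replicate. The depletion of −2.19 (SE 1.21) had an edgeR adjusted p of 0.129 in the test that does not pair them, and it passed with the replicate block.

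The genes with the weakest depletion outside control basal were CG9109, Yp3 and JMJD7. CG9109 had 3.64, 3.09 and 3.11 CPM in IP and 5.41, 7.02 and 7.20 CPM in input of RNAi basal, and depletions of −0.81 (SE 0.17) there, −0.59 (SE 0.169) in UAS HS, −0.50 (SE 0.132) in UAS basal and −1.13 (SE 0.176) in control HS. JMJD7, a protein with a Jumonji domain, was at −0.85, −0.68, −0.65 and −1.14 in the same groups. Yp3 had 32.0, 85.2 and 27.5 CPM in IP and 66.0, 190 and 53.8 CPM in input of RNAi basal, and its depletion was −0.92 (SE 0.492) in RNAi basal, −0.54 (SE 0.45) in UAS HS and −0.37 (SE 0.466) in UAS basal. Within a replicate Yp3 varied less, with a standard deviation of the log2 CPM ratio of 0.0975 in RNAi basal, 0.265 in UAS HS and 0.259 in UAS basal, as the replicate with the highest input also had the highest IP. In control HS, where all its inputs lay between 28.4 and 37.9 CPM, the depletion was −0.86 (SE 0.143, edgeR adjusted p = 0.000563).

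The depleted genes were shorter than the others, which the rule had not used. Of the 200 genes, 199 were matched to the Ensembl annotation of dm6, of which 186 were protein-coding, 11 pseudogenes and 2 non-coding RNAs. The median canonical transcript of the 186 coding genes was 1284 bases long, against 2274 bases in 7543 other coding genes, and the median coding sequence 894 against 1527 bases. Both untranslated regions were shorter, with medians of 94.5 against 195 bases for the 5′UTR and 165 against 321 bases for the 3′UTR. Transcripts under 1000 bases made up 32.8% of the depleted genes and 10.9% of the others, and those over 4000 bases 1.08% and 21.5%. In the bin under 600 bases 12.5% of the genes were among the 200, beside 0.160% of the genes of 6000 bases or more. Among the other genes too the median log2 CPM ratio in the 4 groups moved with length, at −0.53 under 600 bases and 0.39 from 6000 bases. The depleted genes did not follow this, with medians between −1.62 and −1.40 in every bin, of which the last 3 bins held 5, 1 and 1 genes. As they were chosen below one limit, a narrow range in the bins comes with the choice.

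**Figure D4:**
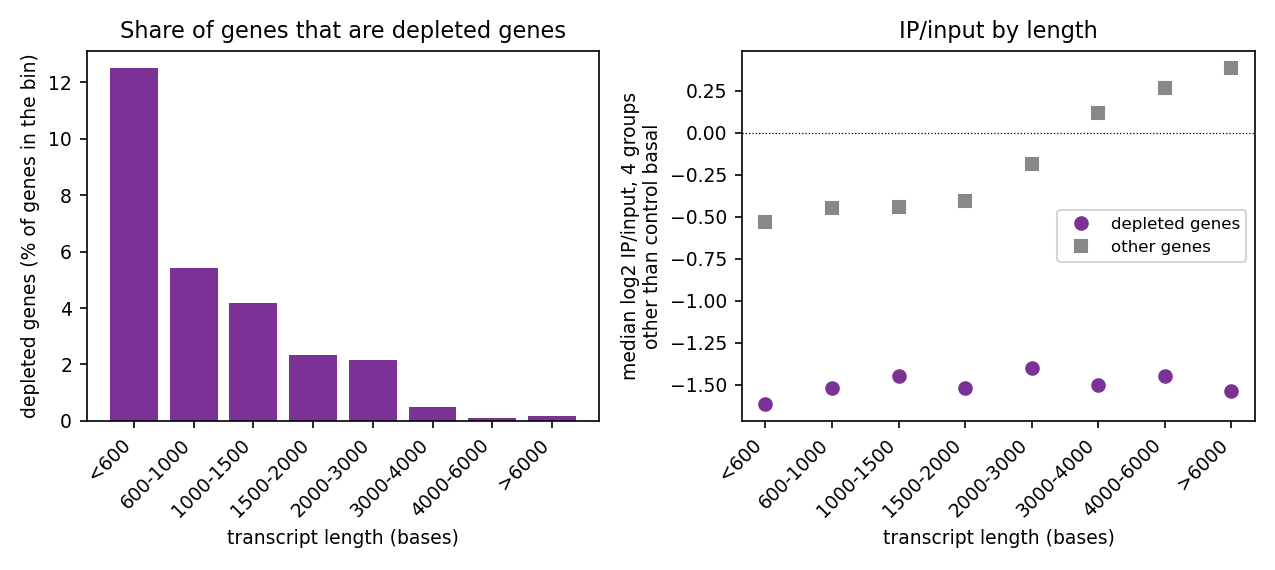
Left, the percentage of genes in each bin of canonical transcript length that are among the depleted genes, which is 12.5% under 600 bases and 0.160% from 6000 bases. Right, the median log2 IP/input in the 4 groups not used to choose the genes for the depleted genes (circles) and the other genes (squares) in the same bins, where the other genes go up with length and the depleted genes do not.

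Base composition and short motifs were compared in the same way. The median GC content of the transcripts was 47.8% in the depleted genes and 49.8% in the others, and the median share of A was 25.8% and 27.4%. AAAC, the core of a motif described around m6A sites of the fly, and GGACT, a form of the motif best known from vertebrates, were counted on the sense strand, where the letters of one cannot overlap those of the other. The median number of AAAC per 1000 bases of transcript was 4.68 in the depleted genes and 5.34 in the others, and of GGACT 0.874 and 0.853. An AAAC was found in the annotated 5′UTR of 101 of 185 depleted genes (54.6%) against 75.3% of 7519 others, and a GGACT in 7 (3.78%) against 11.7%. Within bins of 5′UTR length the difference in AAAC was smaller, with 20.5% against 20.4% under 50 bases, 46.6% against 52.3% between 50 and 99 bases, 68.0% against 69.2% between 100 and 199 bases, 79.3% against 89.0% between 200 and 399 bases, and 100% against 98.4% at 400 bases or more. For GGACT the shares in the same order were 0% against 1.09%, 5.17% against 2.29%, 0% against 6.65%, 3.45% against 12.9% and 33.3% against 25.0%, the last over 9 depleted genes, so that the direction differed between bins. A motif match describes the sequence and is not a site of methylation.

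By position, the 200 genes were spread over the genome. They made up 2.83% of the 1376 eligible genes on 2L, 3.17% of 1579 on 2R, 2.22% of 1487 on 3L, 2.09% of 1917 on 3R, 2.40% of 1332 on X and 4.00% of the 75 on chromosome 4. Within 5000 bases of each other lay 22 pairs of depleted genes, holding 38 of them, a number that was not set against that of all eligible genes. None of these pairs overlapped. Besides the bomanins and attacins, they include the neighbours CG30344 and CG30345, which lie 176 bases apart, and CG13794 and CG13795, which lie 221 bases apart.

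How many of the 200 genes changed in IP/input with heat shock or with the level of dTrmt10A depended on the fit. Between UAS HS and UAS basal, 0 of the 200 genes changed at an adjusted p under 0.05 in edgeR's test of the interaction of group and assay, beside 0.0189% of all genes lower and 0.0189% higher. Without adjustment, p was under 0.05 for 55 genes that were lower and for 0 that were higher, beside 6.28% of all genes lower and 11.4% higher. DESeq2's Wald test called 13 of the 200 lower, a count that was not set against all genes. The median change was −0.36 on the log2 scale, against 0.03 over all genes. With the replicate as a block, which pairs IP and input from the same RNA, 70 genes were lower and 0 higher. The shares of all genes were 6.10% and 12.5%. Limma on each sample's log2 ratio called 0 of the 200 and 0 of all genes, with a median change of −0.32. At an unadjusted p under 0.05 it had 71 of the 200 lower and 0 higher, beside 944 lower and 1612 higher of 10588 genes. When the ratios were also divided by their standard deviation over genes, limma again called 0, with a median change of −0.02. Its unadjusted p was under 0.05 for 17 lower and 10 higher of the 200, beside 604 lower and 562 higher of 10588 genes.

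Between RNAi basal and UAS basal, 6 of the 200 genes had a lower IP/input in RNAi basal and 0 a higher one, beside 0.869% of all genes lower and 6.60% higher. The median change was −0.32, against 0.01 over all genes, and unadjusted p-values under 0.05 were found for 66 genes that were lower and 2 that were higher, beside 8.67% and 15.5% of all genes. RNASEK, with the IP and input levels given above, changed by −0.83 (SE 0.152, edgeR adjusted p = 0.00598), with all 3 IP levels in RNAi basal below all 3 in UAS basal. SdhC had 29.0, 32.8 and 28.5 CPM in IP of RNAi basal against 57.3, 52.4 and 54.1 CPM in UAS basal, while its inputs were 90.2, 89.8 and 90.8 CPM against 103, 95.4 and 94.8 CPM. Its change was −0.53 (SE 0.0908, edgeR adjusted p = 0.00467), and it was called in 12 of 13 alternatives, the most of the 6 genes.

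CG8311, a dolichol kinase of protein glycosylation by its homology, had 6.10, 6.58 and 4.69 CPM in IP of RNAi basal against 15, 9.30 and 12.8 CPM in UAS basal. Its change was −0.82 (SE 0.211, edgeR adjusted p = 0.0322). Rab27, a small GTPase of vesicle transport, had 4.71, 5.18 and 3.43 CPM in IP of RNAi basal against 8.90, 7.32 and 7.57 CPM in UAS basal, a change of −0.70 (SE 0.180, edgeR adjusted p = 0.0319). CG1213 changed by −0.63 (SE 0.149, edgeR adjusted p = 0.0210) and yellow-b by −0.59 (SE 0.159, edgeR adjusted p = 0.0395). In all 6 genes the IP levels of RNAi basal lay below those of UAS basal without overlap. This is a description, as the test of these same samples picked the genes. Leaving out 1 replicate gave 1 called gene without RNAi basal replicate 1, 12 without RNAi basal replicate 2, 2 without RNAi basal replicate 3 and 2 without UAS basal replicate 3, with 4 and 7 in the remaining fits, and yellow-b lost the call in each of these. These counts show how calls depend on single replicates and were not set against all genes. With the replicate block 79 of the 200 were lower and 3 higher, beside 10.1% and 16.6% of all genes. Limma on each sample's log2 ratio called 17 of the 200 lower and 0 higher, beside 206 lower and 813 higher of 10354 genes. With the ratios divided by the spread of each sample it called 0 of the 200, with a median change of −0.07. Of all 10354 genes it then called 51 lower and 308 higher.

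Between UAS HS and control HS, 1 of the 200 genes was lower in UAS HS and 0 were higher, beside 0.706% and 0.239% of all genes. The 1 gene was l(3)80Fg (FBgn0287183, 3L:25798441-26014112), which lies near the centromere of 3L and had 17.6, 19.4 and 13.6 CPM in IP of UAS HS against 30.0, 36.8 and 29.2 CPM in control HS. Its inputs were closer, at 101, 100 and 98.4 CPM in UAS HS and 110, 107 and 113 CPM in control HS. The change was −0.78 (SE 0.139, edgeR adjusted p = 0.0248), and it was called in 6 of 13 alternatives, over which the adjusted p ranged between 1.70e-05 and 0.147. Of the 6 fits that left out a replicate, the 1 without UAS HS replicate 3 kept the call. The median change of the 200 genes was 0.09, against 0.05 over all genes, and unadjusted p-values under 0.05 were found for 10 that were lower and 25 that were higher, beside 7.03% and 9.55% of all genes. With the replicate block 7 of the 200 were lower and 20 higher, beside 5.30% and 7.18% of all genes.

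The RNA level of the depleted genes, measured in the inputs, was compared between the same groups. Between UAS HS and UAS basal, 29 of the 200 genes were lower in UAS HS and 22 higher, beside 22.0% of all genes lower and 18.7% higher. The direction of small changes depended on scaling. Scaling by the library total lowered the median change of all genes to −0.37, and then 121 of the 200 were lower and 2 higher. As this scaling moved all genes, these counts describe the setting and not the 200 genes in particular.

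The largest decrease with heat was in HPS1, which encodes a homolog of a subunit of a lysosome-related organelle complex. HPS1 had 6.23, 8.71 and 7.68 CPM in input of UAS HS against 29.1, 29.0 and 25.7 CPM in UAS basal. The change was −1.52 (SE 0.115, edgeR adjusted p = 7.91e-05), and in the controls, whose basal values chose the genes and were not tested, the inputs were 8.13, 9.49 and 10.4 CPM in control HS and 31.6, 30.2 and 31.2 CPM in control basal. CG17068 fell by 1.07 (SE 0.170, edgeR adjusted p = 0.00161), with 3.60, 4.92 and 3.11 CPM in UAS HS against 9.94, 11.3 and 10.0 CPM in UAS basal. PCID2, of a complex in mRNA export, fell by 1.05 (SE 0.153, edgeR adjusted p = 0.00108), with 1.90, 2.48 and 2.21 CPM in UAS HS against 6.31, 5.94 and 5.41 CPM in UAS basal. For all 3 the groups did not overlap, which is a description, as they were picked by their change in these same samples.

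The largest increases with heat were in the attacins. AttB had 58.5, 52.2 and 46.8 CPM in input of UAS HS against 22.2, 15.1 and 19.9 CPM in UAS basal, a change of 1.83 (SE 0.150, edgeR adjusted p = 9.84e-05). AttA had 42.9, 36.4 and 33.8 CPM against 21, 10.6 and 11.2 CPM, a change of 1.79 (SE 0.245, edgeR adjusted p = 0.000819). In the controls AttB was at 17.4, 42.9 and 21.4 CPM in control HS and 5.58, 24.4 and 17.3 CPM in control basal, where the samples overlapped. BomT2 changed by 0.41 (SE 0.0999, edgeR adjusted p = 0.0117), but by 0.04 (edgeR adjusted p = 0.753) when counts were scaled by total library size, and it passed in 9 of 11 alternatives. TpnC41C rose by 0.79 (SE 0.238, edgeR adjusted p = 0.0285), with 38.5, 31.2 and 19.6 CPM in UAS HS against 23.2, 18.5 and 25.1 CPM in UAS basal, where 1 sample of UAS HS lay among the basal ones, and it kept the call in 6 of 11 alternatives, not among them the scaling by total library size, which gave 0.41 (edgeR adjusted p = 0.136). Ubi-p63E rose by 0.52 (SE 0.100, edgeR adjusted p = 0.00390), with 981, 1041 and 982 CPM against 755, 972 and 977 CPM, but by total library size its change was 0.15 (edgeR adjusted p = 0.205). The 17 heat-inducible genes of the list, none of which is among the 200, all rose in the same comparison by a median log2 change of 7.13.

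**Figure D5:**
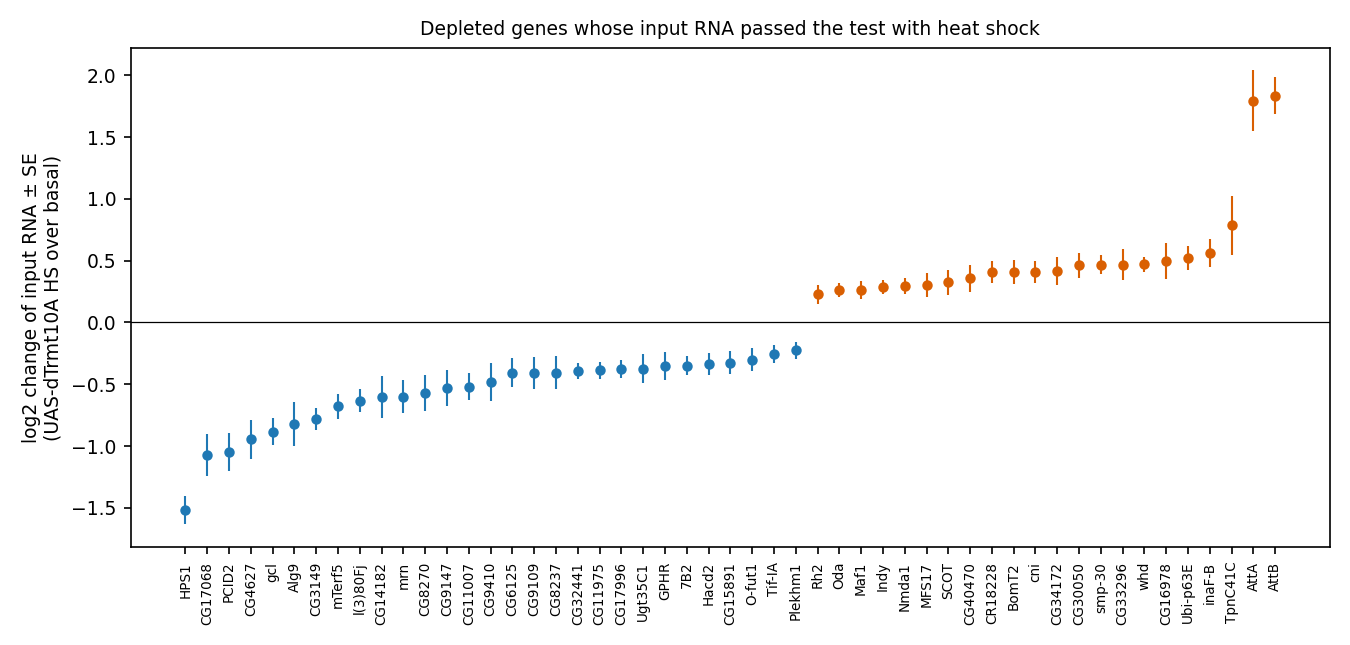
Log2 change of input RNA in UAS HS over UAS basal, with its standard error, for the 29 depleted genes that were lower (blue) and the 22 that were higher (orange) at an adjusted p under 0.05. HPS1 stands lowest at −1.52 and AttB highest at 1.83.

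Between UAS HS and control HS, 17 of the 200 genes were lower in UAS HS and 4 higher, beside 3.33% and 3.20% of all genes. The inputs of these groups pair by replicate number, and with the block 32 were lower and 14 higher, beside 5.63% and 5.99% of all genes. Without UAS HS replicate 2, 5 were lower and 2 higher, without control HS replicate 1 6 and 1, without control HS replicate 3 8 and 1, and without UAS HS replicate 1 10 and 2. The counts without a replicate were not set against all genes. CG9616 had 1.86, 2.05 and 2.02 CPM in UAS HS against 4.54, 7.02 and 4.33 CPM in control HS, a change of −1.39 (SE 0.221, edgeR adjusted p = 0.0117). TotX had 19.2, 16.2 and 13.3 CPM against 35.6, 37.5 and 29.7 CPM, a change of −1.05 (SE 0.161, edgeR adjusted p = 0.0102). CG13794 was at 8.59, 8.51 and 6.51 CPM against 16.7, 17.6 and 14.5 CPM, a change of −1.02 (SE 0.145, edgeR adjusted p = 0.00722). BomS4 was the other immune peptide that was lower, so that these 2 of the 10 peptides were lower and none higher at the threshold. BomS4 kept its call in 2 of the 6 fits that left out a replicate. AttA, at 0.99 (edgeR adjusted p = 0.0750), and AttB, at 0.97 (edgeR adjusted p = 0.0880), had higher estimates that did not pass. The median change of the 10 peptides was 0.18, so they did not move in 1 direction. The 3 largest increases were in CG5783 (0.87, SE 0.164, edgeR adjusted p = 0.0212), yellow-b (0.64, SE 0.0878, edgeR adjusted p = 0.00617) and inaF-B (0.49, SE 0.108, edgeR adjusted p = 0.0352). The gene yellow-b had 20.3, 18.9 and 18.5 CPM in UAS HS against 12.8, 11.8 and 13.3 CPM in control HS.

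Between RNAi basal and UAS basal, 3 of the 200 genes were lower in RNAi basal and 2 higher, beside 1.64% and 0.950% of all genes. The gene smp-30, the homolog of a calcium-binding senescence marker protein, had 88.5, 99.2 and 87.2 CPM in RNAi basal against 160, 156 and 140 CPM in UAS basal, a change of −0.79 (SE 0.0817, edgeR adjusted p = 0.00193). CG16704 changed by −0.74 (SE 0.136, edgeR adjusted p = 0.0271), with 43.9, 47.8 and 52.8 CPM against 65.9, 69.3 and 96.3 CPM. The gene yellow-b changed by −0.52 (SE 0.0695, edgeR adjusted p = 0.00738), with 16.3, 17.2 and 15.8 CPM against 21.8, 22.9 and 23.0 CPM. CG9616 had 5.89, 4.39 and 6.0 CPM in RNAi basal against 2.73, 2.19 and 2.47 CPM in UAS basal, a change of 1.09 (SE 0.177, edgeR adjusted p = 0.0161), and ABCD had 92.0, 98.2 and 91.1 CPM against 55.9, 58.8 and 73.0 CPM, a change of 0.52 (SE 0.0964, edgeR adjusted p = 0.0271). CG9616 and yellow-b passed in both comparisons between genotypes, CG9616 with lower and yellow-b with higher levels in UAS-dTrmt10A heads each time. Across these 5 genes the samples of RNAi basal and UAS basal did not overlap, which is a description, as the test of these same samples picked them.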

How the data were processed

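Reads had been trimmed (TrimGalore), mapped to dm6 (STAR 2.7.3a), cleared of unmapped and improper pairs and assigned to FlyBase genes (summarizeOverlaps) by the authors. The treatment of strand, multi-mapped reads and duplicates is not given in the sources used here. The deposited values are raw counts per gene, without normalization, for 30 libraries, and 0 columns were left out. The labels mark all 30 libraries with SYS, read here as the Synaptic Systems antibody. The methods name that antibody for some replicates and an NEB antibody for others. Antibody was therefore not a term in any fit.

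CPM were computed from library totals. Each comparison was fitted on its own libraries with edgeR 4.0.16 in R 4.3.3 (filterByExpr with a minimum count of 10, TMM scaling, quasi-likelihood F-test, Benjamini-Hochberg adjustment over all genes tested, threshold 0.05), and tested on simulated data. A change in IP/input is the interaction of group and assay. Counts below 3 are treated as the detection floor. Confidence in low values covers counting error only.

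Alternatives were DESeq2 1.42.0 size factors and its Wald test, total library size, no filter beyond a count of 1, a replicate block and leaving out each replicate. Limma 3.58.1 on per-sample log2 IP/input (prior count 2), as it stands and divided by each sample's standard deviation over genes, was chosen after seeing the data. The gene set and the lists were chosen with earlier results of these data known. IP and input of a replicate come from the same RNA by the protocol, and their residuals correlated by 0.162 to 0.396 for the same number. The inputs of UAS HS and control HS met the same check (0.137, 0.182 and 0.248), and the other inputs did not.

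Genes were named by rule: the 10 lowest ratios, the 10 highest inputs, the 3 on each side of the limit, up to 3 in each direction per comparison, the 3 least depleted genes in the other groups and up to 4 per list. SdhC, CG1213 and yellow-b in the IP/input comparison, and the genes of the role groups, were named after their values were seen. Ensembl's annotation of dm6 gave positions and transcript structure, and the RefSeq genome of that build gave the sequences for base composition. Python 3.11.15, pandas 2.3.3 and Matplotlib 3.10.9 made summaries and figures.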

Additional observations from a re-analysis of the deposited data

Results flagged for a closer look

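The IP/input of 7 of the 200 genes differed between groups by the interaction test in edgeR. In UAS HS against control HS, l(3)80Fg differed by −0.78. In RNAi basal against UAS basal, RNASEK differed by −0.83, CG8311 by −0.82, Rab27 by −0.70, CG1213 by −0.63, yellow-b by −0.59 and SdhC by −0.53. Of these, yellow-b also had a lower input level in RNAi basal than in UAS basal, whereas the inputs of RNASEK were 43.8, 40.4 and 42.9 CPM in RNAi basal against 39.4, 38.9 and 39.1 CPM in UAS basal. The adjusted p of RNASEK ranged between 7.06e-05 and 0.634 over the alternatives, that of CG8311 between 4.36e-05 and 0.163, of Rab27 between 0.00175 and 0.131, of CG1213 between 4.08e-07 and 0.108, of yellow-b between 0.00220 and 0.127, and of SdhC between 5.38e-06 and 0.0858. The spread of IP/input over all genes differed between these samples as well, and its part in the differences was not tested. In limma on each sample's log2 ratio divided by that spread, 0 of the 7 genes passed, with adjusted p between 0.0717 for l(3)80Fg and 0.634 for RNASEK. In limma on the undivided ratios, l(3)80Fg, at −0.78 (adjusted p = 0.115), and yellow-b, at −0.61 (adjusted p = 0.0516), did not pass either.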

How the results depend on the processing

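The counts of depleted genes lower in IP than in input stayed within 1.5 times under every alternative, and the replicate block gave 200 of 200 in all 4 groups. Counts of changed genes depended on the setting. In this section they are given for the 200 genes alone. They show how calls shift with the setting and not how the 200 compare with all genes. For the change in IP/input between UAS HS and UAS basal (0 lower), total library size gave 39 lower, DESeq2's Wald test 13 and the replicate block 70. Between UAS HS and control HS (1 lower, 0 higher), the replicate block gave 7 lower and 20 higher, and both limma fits gave 0. Between RNAi basal and UAS basal (6 lower, 0 higher), total library size gave 60 lower, DESeq2's Wald test 26 lower and 1 higher, no filter 14 lower, the replicate block 79 lower and 3 higher, limma on ratios 17 lower and on standardised ratios 0. For input RNA, UAS HS against UAS basal gave 121 lower and 2 higher with total library size. UAS HS against control HS gave 32 lower and 14 higher with the block, and 2 higher with total library size, 8 with DESeq2's Wald test and 8 without the filter. RNAi basal against UAS basal gave 5 lower and 5 higher with DESeq2's Wald test, 4 higher without the filter and 1 higher with the block. The cause of these shifts was not tested, except that total library size put the median of all genes at −0.37 in input RNA of UAS HS against UAS basal, at −0.23 in the change in IP/input between these groups and at −0.21 in that between RNAi basal and UAS basal.

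Without 1 replicate, IP/input changed in 1 to 12 genes between RNAi basal and UAS basal, and input RNA was lower in 20 to 28 and higher in 15 to 27 genes between UAS HS and UAS basal, lower in 5 to 15 and higher in 1 to 4 between UAS HS and control HS, and lower in 2 to 4 and higher in 0 to 4 between RNAi basal and UAS basal. Of 938 values of single genes under an alternative, 713 kept their direction and call, 217 lost the call and 8 changed sign. All 8 are input changes of UAS HS against UAS basal with total library size, at −0.0127 for CG40470, −0.0848 for Indy, −0.0692 for MFS17, −0.103 for Maf1, −0.0729 for Nmda1, −0.109 for Oda, −0.144 for Rh2 and −0.0452 for SCOT.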
